A study of Mus musculus with 8 samples.

Results

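The transcripts described here encode the receptor chains that share the common gamma chain, interleukin-15 (IL-15) and its private receptor, and 2 chains that sense IL-12 and IL-18. They were taken by gene symbol from a table of 25230 genes, and all 10 were present: Il2ra, Il2rb, Il2rg, Il15, Il15ra, Il7r, Il21r, Il4ra, Il18r1 and Il12rb2. All 10 also passed the filter on low counts, which kept 14691 genes. The cells were intraepithelial lymphocytes (IELs) of the gut from C57BL/6J mice, enriched on Percoll and sorted by CD45, a surface protein of all leukocytes, so the sort did not itself select T cells. Every mouse was injected intraperitoneally with 35 µg of an antibody against CD3, which triggers the T cell receptor complex, and the cells were collected 3 hours later. In 4 mice the antibody was combined with PBS, the control, and in 4 with exendin-4 (Ex4) at 10 nmol/kg, an agonist of the GLP-1 receptor. No group without anti-CD3 was analysed here, so every value below is that of sorted cells from mice given anti-CD3. Libraries held 13386889 to 31843413 gene counts, with the fewest in Ex4 4 and the most in Ex4 3.

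The common gamma chain (Il2rg) is the signalling subunit shared by the receptors for IL-2, IL-4, IL-7, IL-9, IL-15 and IL-21. It pairs with the beta chain Il2rb in the receptors for IL-2 and IL-15, to which Il2ra or Il15ra adds high affinity for the respective cytokine, and JAK1 and JAK3 carry the signal to STAT proteins, STAT5 above all for IL-2, IL-7 and IL-15. IL-15 is usually presented in trans, by a neighbouring cell that displays it on IL-15 receptor alpha, and IELs of the CD8αα type depend on it for their survival. IL-12 and IL-18 receptors act beside this system and drive interferon gamma production in activated lymphocytes.

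These 10 genes lie on 7 chromosomes, and some of them are neighbours. Il2ra (chromosome 2, 11642792 to 11693194) and Il15ra (chromosome 2, 11705172 to 11733985) are 11977 bases apart with 1 predicted gene between them, and Il4ra (chromosome 7, 125552271 to 125579474) and Il21r (chromosome 7, 125603252 to 125634397) are 23777 bases apart with 0 genes between them, in RefSeq's annotation of GRCm38, the assembly also called mm10. Il18r1 (chromosome 1, 40465552 to 40500854) is followed 14507 bases downstream by Il18rap, which encodes the second chain of the IL-18 receptor. The counts of each gene cover its whole transcript. A long non-coding RNA gene overlaps Il2ra, and Serbp1 and a small nucleolar RNA gene overlap Il12rb2, so those 2 counts are uncertain to the extent that the counting ignored strand, which the sources used here do not give. The 250 bases before the start of a promoter entry are shown for Il15ra, the member whose groups were farthest apart, and its neighbour Il2ra. They are also shown for Il7r and Il12rb2, 2 of the 3 members whose windows hold a STAT motif. Il15ra had more than 1 entry, and the most upstream is shown. For Il15ra, Il7r and Il12rb2 the entry's start lies inside the gene's span, so part of the stretch overlaps the gene. Sequences are from RefSeq (GRCm38.p6), 5′ to 3′ along the gene, and capitals mark matches to the STAT motif TTCNNNGAA or to the NF-kappaB consensus motif, searched on both strands.
Il2ra, chr2:11642542-11642791, plus strand: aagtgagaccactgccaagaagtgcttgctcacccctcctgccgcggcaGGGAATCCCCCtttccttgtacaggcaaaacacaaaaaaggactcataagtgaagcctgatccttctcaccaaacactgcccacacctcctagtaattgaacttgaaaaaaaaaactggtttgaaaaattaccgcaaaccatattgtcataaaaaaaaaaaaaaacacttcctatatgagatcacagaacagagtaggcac
Il15ra, chr2:11705043-11705292, plus strand: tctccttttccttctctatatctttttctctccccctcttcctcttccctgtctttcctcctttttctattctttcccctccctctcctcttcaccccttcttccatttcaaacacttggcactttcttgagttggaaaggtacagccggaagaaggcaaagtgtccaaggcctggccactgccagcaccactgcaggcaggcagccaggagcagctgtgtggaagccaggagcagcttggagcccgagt
Il7r, chr15:9529877-9530126, minus strand: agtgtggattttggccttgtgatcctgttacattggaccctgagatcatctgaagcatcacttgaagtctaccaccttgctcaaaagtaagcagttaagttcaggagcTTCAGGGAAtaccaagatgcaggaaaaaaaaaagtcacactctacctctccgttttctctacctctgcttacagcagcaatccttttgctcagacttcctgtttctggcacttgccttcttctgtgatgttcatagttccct
Il12rb2, chr6:67376189-67376438, minus strand: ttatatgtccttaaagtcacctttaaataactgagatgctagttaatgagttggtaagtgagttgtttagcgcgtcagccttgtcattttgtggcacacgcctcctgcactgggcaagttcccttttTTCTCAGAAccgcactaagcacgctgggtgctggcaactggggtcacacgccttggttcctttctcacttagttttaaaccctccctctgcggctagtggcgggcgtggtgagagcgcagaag
In windows of 300 bases, from 250 before to 50 after the start, RefSeq entries were found for 8 of the 10 members (Il2rb and Il15 were not matched). TTCNNNGAA was found for 3 of them, Il7r, Il12rb2 and Il18r1, and the NF-kappaB motif for 3, Il2ra (the capitals above, where overlapping matches run together), Il12rb2 (across its start site, so not shown) and Il4ra (after its start site). Over all 32851 promoter windows 8.3% held the STAT motif and 8.46% the NF-kappaB motif. Counted by gene, as for the members, each motif was found for 9.55% of 27025 genes. The Il15ra window above held neither.

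T cell and IEL markers were present in every library, with differences in both directions between groups. The T cell receptor subunit gene Cd3e was at 717 ± 167 CPM with PBS and 808 ± 181 with Ex4 (SD, n = 4 in each group; CPM is the gene count scaled by TMM to a common library size), and Itgae, the integrin that anchors IELs to the epithelium, at 332 ± 92.5 and 311 ± 56.9 CPM. The coreceptor gene Cd8a was at 1600.1 ± 322 and 1060.1 ± 116 CPM, with every Ex4 library below every PBS library (log2 fold change -0.59, unadjusted p = 0.00198, adjusted p = 0.351, edgeR). Of the 10 T cell and IEL markers 6 had log2 fold changes above 0, among them Cd8b1 (0.40, edgeR adjusted p = 0.685), and 4 below, among them Cd160 (-0.42, edgeR adjusted p = 0.721) and Cd244a (-0.45, edgeR adjusted p = 0.671). Markers of other cells were present in every library. The 13 epithelial markers together made 619 to 1317 CPM with PBS and 315 to 684 CPM with Ex4. The 7 B and plasma cell markers made 844 to 1461 and 256 to 2201 CPM, the 12 myeloid and dendritic cell markers 941 to 1587 and 848 to 1553 CPM, and the 9 markers of innate lymphoid and mast cells 195 to 345 and 174 to 255 CPM. H2-Ab1 made most of the myeloid and dendritic cell sum, at 794 to 1470 and 668 to 1393 CPM, whereas Lyz2 was at 27.7 ± 20.3 and 16.2 ± 5.70 CPM. The 10 conventional T cell markers made 192 to 297 and 273 to 402 CPM, and the 6 regulatory T cell markers 1510 to 2330 and 2117 to 2530 CPM, although the defining gene Foxp3 was at 1.52 ± 1.74 and 3.08 ± 1.02 CPM and Cd4 at 5.41 ± 0.553 and 8.02 ± 6.08 CPM. In these 7 lists 0 members passed the edgeR test, and 1 marker, the myeloid gene Fcgr1, had 0 counts in some library. The part of these cells in the results was not tested beyond the fits with a marker score given below. Such a score was the mean level of a list's markers on the log2 scale, so each marker weighed alike, unlike in a sum. Of the conventional T cell markers 7 of 10 had log2 fold changes above 0, and of the epithelial markers 0 of 13. A score can therefore take up part of the group difference. PBS 1 stood apart in several of these measures: it held the lowest sum of conventional T cell markers (192 CPM) and of regulatory T cell markers (1510 CPM), and the highest of innate lymphoid and mast cell markers (345 CPM). Values without PBS 1 are therefore given beside the results that rest on it. In bulk RNA, fewer cells of a type and less RNA per cell cannot be told apart.

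**Figure D1:**
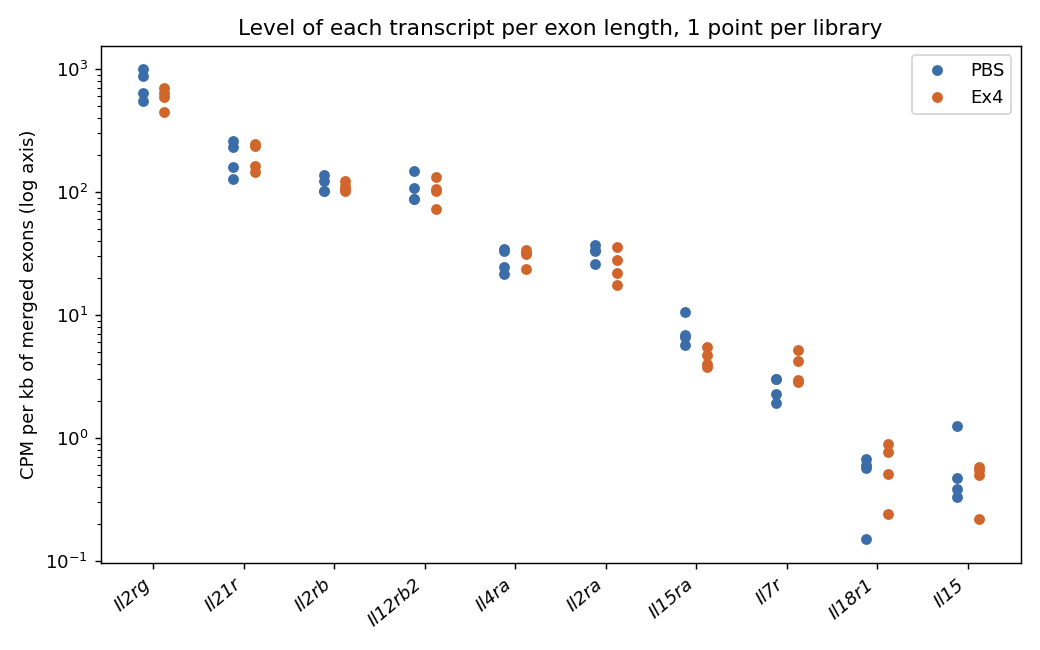
Level of each transcript as CPM per kb of merged exon length (log axis), 1 point per library, PBS in blue and Ex4 in orange, ordered by the mean over 8 libraries. Il2rg sits above every other transcript in each library, and Il18r1 and Il15 lie at the bottom, near 1 CPM per kb or below.

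The sorted cells held far more transcript of the shared gamma chain and of Il2rb than of the alpha chains Il2ra, Il15ra and Il7r. Per kb of exon, Il2rg was the most abundant of the 10, at 760 ± 205 CPM per kb with PBS and 594 ± 108 with Ex4. The IL-21 receptor gene Il21r followed at 194 ± 62.1 and 196 ± 50.3 CPM per kb, and was above Il2rb in 8 of 8 libraries. Il2rb was at 116 ± 16.9 and 110.4 ± 9.51 CPM per kb, and Il12rb2, which encodes the signalling chain of the IL-12 receptor, at 108 ± 29.0 and 103 ± 24.4 CPM per kb. Il2rb exceeded Il12rb2 in 6 of 8 libraries, so these neighbours in the order did not differ beyond their spread. Next came Il4ra, the IL-4-binding chain of its receptor, at 28.3 ± 6.30 and 30.0 ± 4.51 CPM per kb, and Il2ra (CD25) at 32.5 ± 4.57 and 25.7 ± 7.80 CPM per kb. Il4ra was above Il2ra in 3 of 8 libraries, and their order is not resolved.

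Il15ra stood clearly below that pair, at 7.42 ± 2.17 CPM per kb with PBS and 4.48 ± 0.757 with Ex4, followed by Il7r at 2.54 ± 0.545 and 3.80 ± 1.11 CPM per kb. Il15ra exceeded Il7r in 6 of 8 libraries. At the bottom were Il18r1, the ligand-binding chain of the IL-18 receptor, at 0.499 ± 0.236 and 0.605 ± 0.291 CPM per kb, and Il15 itself at 0.611 ± 0.434 and 0.462 ± 0.165 CPM per kb. Il18r1 was above Il15 in 5 of 8 libraries. For each transcript of Il2rb there were, per kb and within the same library, 6.76 ± 2.36 of Il2rg with PBS and 5.38 ± 0.980 with Ex4, and for each of Il2ra there were 3.59 ± 0.520 and 4.61 ± 1.35 of Il2rb. Partner chains were unequal too. Il12rb2 exceeded Il12rb1, the other IL-12 receptor chain, 23.4 ± 11.2-fold per kb with PBS and 30.5 ± 13.1-fold with Ex4. Il18rap exceeded Il18r1 7.83 ± 3.13-fold and 11.0 ± 3.79-fold.

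The comparison of Ex4 with PBS asked whether the GLP-1 receptor agonist changed these transcripts in the sorted cells of mice given anti-CD3. Of the 10 members 0 passed the edgeR quasi-likelihood test at an adjusted p of 0.05, where 0.0136% of all 14691 genes did. DESeq2, which called 0.533% of the genes it tested, and limma-voom, which called 0.00681%, also called 0 of the 10. At an unadjusted p under 0.05 there were 2 of 10 in edgeR, Il15ra with the lower and Il7r with the higher mean in Ex4, where 7.61% of all genes were. The groups did not overlap for 1 member, Il15ra, against 4.95% of all genes in either direction and 2.66% with the lower values in Ex4. Log2 fold changes were above 0 for 4 members and below 0 for 6, with a median of -0.06 beside 0.02 over all genes tested.

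**Figure D2:**
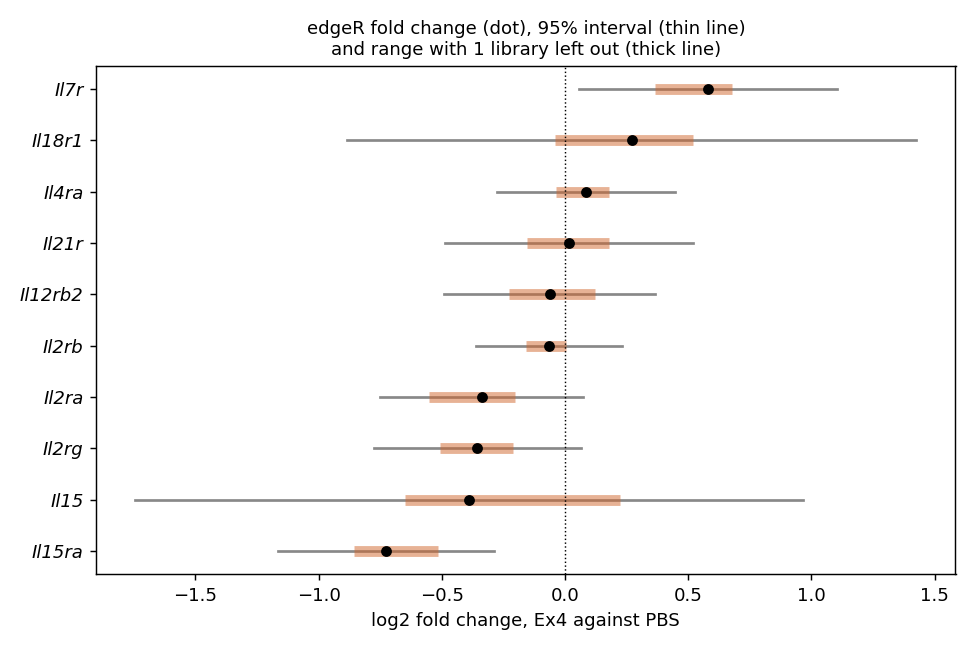
Log2 fold change of Ex4 against PBS for each transcript from edgeR (dot), its 95% interval (thin line) and its range when any 1 of the 8 libraries is left out (thick line). Il15ra lies farthest to the left at -0.73 and Il7r farthest to the right at 0.58, and the intervals of the other 8 transcripts include 0.

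Il15ra, which binds IL-15 with high affinity and displays it to neighbouring cells, had the largest difference of the 10. It was at 47.0, 25.1, 30.5 and 29.3 CPM in PBS 1 to 4 and at 17.8, 24.2, 20.9 and 16.7 CPM in Ex4 1 to 4. Every Ex4 library lay below every PBS library, with PBS 1 well above the rest and 25.1 against 24.2 CPM at the closest point. The log2 fold change was -0.73 (SE 0.21, 95% interval -1.17 to -0.29), with an unadjusted p of 0.00315 and an adjusted p of 0.406 (edgeR), so the difference did not pass the test over all genes. It had the 114th smallest p among the genes tested. Without PBS 1 the log2 fold change was -0.51. DESeq2 gave -0.74 with an adjusted p of 0.106. The libraries numbered 3 to 6 in the labels and those numbered 11 to 19, each with 2 a group and with no meaning of the numbers given, had differences in mean log2 CPM of -0.73 and -0.67. Epithelial markers shared the direction of the group difference, with a median log2 fold change of -0.63 and 0 of 13 above 0. In PBS 1, where Il15ra was highest, their sum was 619 CPM, beside 621 CPM in PBS 2 and 1317 CPM in PBS 3. Single markers differed in this. Epcam was at 184, 146, 160 and 154 CPM with PBS and at 97.4, 129, 144 and 131 CPM with Ex4. Epcam and Lgals4 were highest in PBS 1, with every Ex4 library below every PBS library, and Cdh1 was also highest there. The other markers of the list were highest in PBS 3. With the epithelial score as a term in the fit, the log2 fold change of Il15ra was -0.77 (edgeR adjusted p = 0.478), and with the conventional T cell score as a term it was -0.40 (edgeR adjusted p = 0.999). Which of the sorted cells held the transcript was not tested.

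Its ligand gene Il15 was close to the limit of detection, with 7 to 59 counts in a library. It was at 2.84, 0.871, 0.744 and 1.07 CPM with PBS and at 1.24, 1.13, 1.31 and 0.495 CPM with Ex4. The groups overlapped, and the 59 counts of PBS 1 (2.84 CPM, 95% exact Poisson interval 2.16 to 3.66, counting error only) stood above all 7 other libraries. Log2 fold change was -0.39 with a 95% interval of -1.74 to 0.97 (edgeR adjusted p = 0.937), and 0.22 without PBS 1. No difference in Il15 was detectable in these libraries.

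Among the chains of the IL-2 receptor, Il2rg and Il2ra had lower means with Ex4 and Il2rb was nearly level. Il2rg was at 2363, 2072, 1521 and 1298 CPM in PBS 1 to 4 and at 1407, 1530, 1668 and 1065 CPM in Ex4 1 to 4. The 2 highest libraries were PBS 1 and PBS 2, and the lower 2 PBS libraries lay within the Ex4 range. The log2 fold change was -0.36 (SE 0.20, 95% interval -0.78 to 0.06, edgeR adjusted p = 0.706), -0.21 without PBS 1 and -0.17 with the conventional T cell score as a term. In the libraries numbered 3 to 6 and 11 to 19 the difference in mean log2 CPM was -0.59 and -0.08. Il2ra, an activation-induced gene that gives the IL-2 receptor its high affinity, was at 149, 211, 193 and 189 CPM with PBS and at 125, 160.2, 202 and 99.1 CPM with Ex4. Ex4 3 lay among the PBS libraries, and the other 3 Ex4 libraries lay below PBS 2, 3 and 4. Its log2 fold change was -0.34 (SE 0.19, 95% interval -0.75 to 0.07, edgeR adjusted p = 0.721), -0.55 without Ex4 3, -0.20 without Ex4 4, -0.20 with the epithelial score as a term and -0.51 with the conventional T cell score. Il2rb, which IL-2 and IL-15 share, was at 437, 525, 436 and 585 CPM with PBS and at 526, 483, 452 and 433 CPM with Ex4. Its log2 fold change of -0.07 had the narrowest 95% interval of the 10, -0.36 to 0.23 (edgeR adjusted p = 0.949).

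Il7r, the IL-7 receptor alpha chain that marks naive and memory lymphocytes and is turned down upon activation, had the highest positive fold change. It was at 14.0, 14.0, 10.5 and 8.94 CPM in PBS 1 to 4 and at 19.6, 13.7, 24.2 and 13.4 CPM in Ex4 1 to 4. Ex4 1 and Ex4 3 lay above every other library, and the other 2 Ex4 libraries lay within the PBS range. The log2 fold change was 0.58 (SE 0.25, 95% interval 0.06 to 1.10), with an unadjusted p of 0.0325 and an adjusted p of 0.596 (edgeR). It was 0.37 without Ex4 3. The sum of the conventional T cell markers was also highest in Ex4 3 (402 CPM) and Ex4 1 (345 CPM). With the conventional T cell score as a term the log2 fold change of Il7r was 0.56 (edgeR adjusted p = 0.999), and with the epithelial score 0.37. Taken separately, the libraries numbered 3 to 6 and 11 to 19 in the labels gave differences in mean log2 CPM of 0.23 and 0.89.

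The receptors for IL-21 and IL-4 did not separate the groups. Il21r was at 424, 868, 525 and 767 CPM with PBS and at 813, 540.4, 778 and 480.3 CPM with Ex4, so that each group held 2 high and 2 low libraries. The log2 fold change of Il21r was 0.02 (95% interval -0.49 to 0.52, edgeR adjusted p = 0.993). Il4ra followed the same order of libraries within PBS, at 129, 206, 146 and 198 CPM, and was at 201, 186, 193 and 141 CPM with Ex4. For Il4ra the log2 fold change was 0.09 (95% interval -0.27 to 0.45, edgeR adjusted p = 0.943).

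Neither chain of the IL-12 and IL-18 receptors among the 10 separated the groups. Il12rb2 was at 335, 566, 330.2 and 405 CPM with PBS and at 385, 401, 503 and 277 CPM with Ex4, with the highest library in PBS and the lowest in Ex4. For Il12rb2 the log2 fold change was -0.06 (95% interval -0.49 to 0.37, edgeR adjusted p = 0.969). Il18r1 was at 0.722, 2.90, 3.23 and 2.76 CPM with PBS and at 3.72, 1.17, 2.45 and 4.32 CPM with Ex4, from 15 to 84 counts. PBS 1 and Ex4 2 were the low libraries. Its log2 fold change was 0.27 (95% interval -0.89 to 1.43, edgeR adjusted p = 0.945), and -0.04 without PBS 1. Its partner Il18rap was at 12.3, 32.5, 23.2 and 23.4 CPM with PBS and at 51.1, 26.7, 35.7 and 45.1 CPM with Ex4, where only Ex4 2 lay within the PBS range. The log2 fold change of Il18rap was 0.79 (SE 0.27, edgeR adjusted p = 0.477), and 0.58 without PBS 1. Il12rb1 had the lower mean with Ex4, 14.7 ± 3.56 against 21.2 ± 7.67 CPM (log2 fold change -0.52, edgeR adjusted p = 0.67), and -0.27 without PBS 1.

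**Figure D3:**
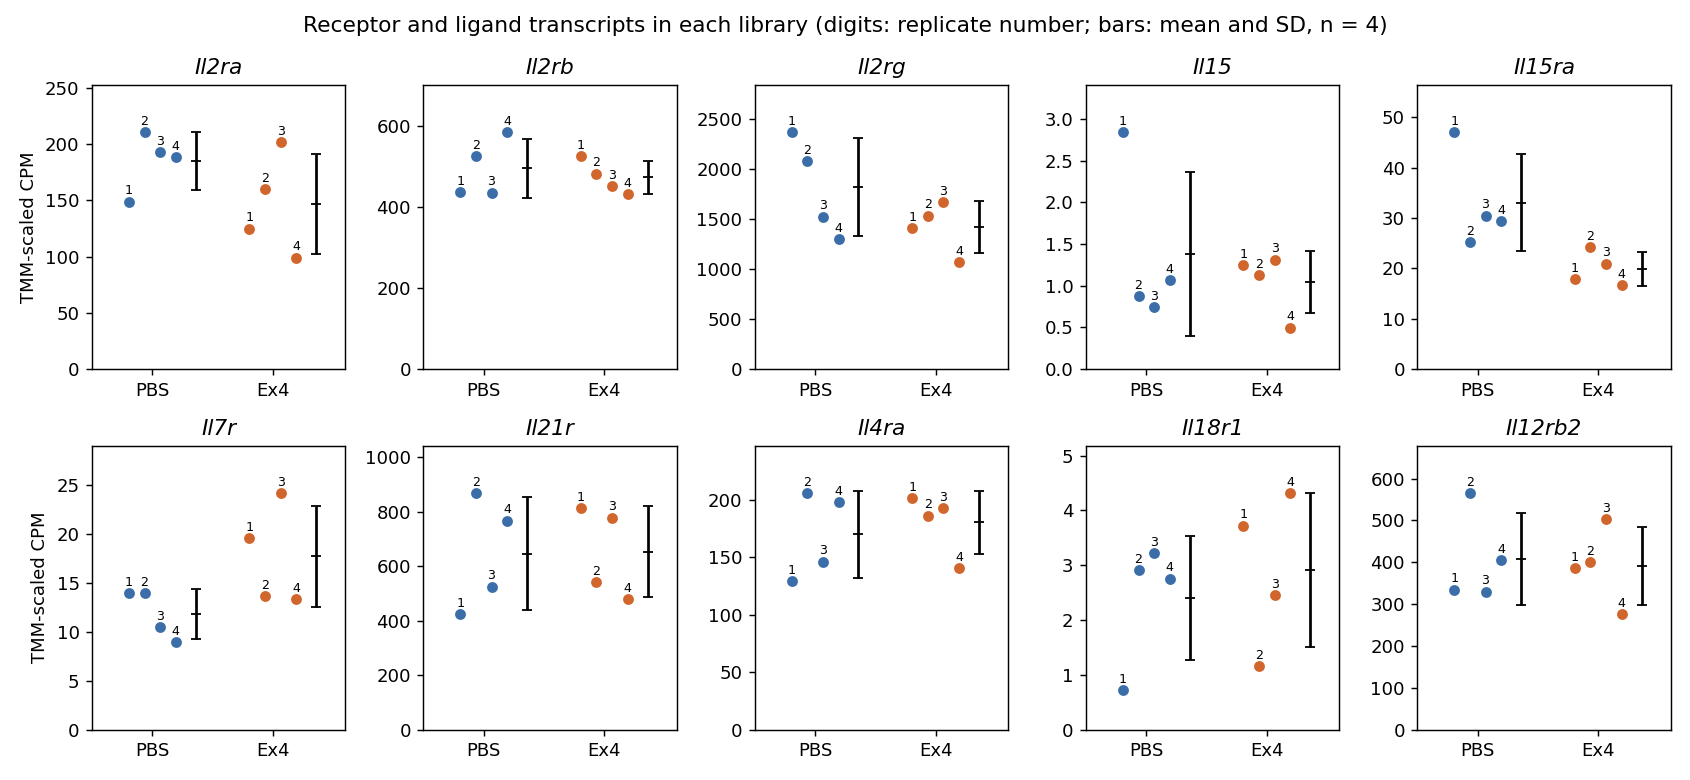
TMM-scaled CPM of each transcript in each library (digits are replicate numbers, blue PBS, orange Ex4), with the mean and SD of each group (n = 4) beside the points. For Il15ra every Ex4 library lies below every PBS library, while the groups overlap for the other 9 transcripts.

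The spread between mice was larger than counting error for all 10 members in both groups. For Il2rg the coefficient of variation was 27.0% with PBS and 18.2% with Ex4, where counting alone gives 0.512% and 0.543%. Il2rb was the steadiest, at 14.7% and 8.61%, except that Il2ra had 14.1% with PBS. Il15 was the most variable with PBS, at 71.1%, and Il18r1 with Ex4, at 48.1%, and for these rare transcripts counting error alone gives 18.7% and 12.7%.

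Some libraries were high or low for many of these transcripts at once. Ex4 4 held the lowest value of 6 of the 10 and was below the mean of 9 of them, the exception being Il18r1, of which it held the highest value. PBS 2 held the highest value of 4 members, Il21r, Il4ra, Il12rb2 and Il2ra. PBS 1 held the highest value of 3, Il2rg, Il15 and Il15ra, and the lowest of 3, Il21r, Il4ra and Il18r1. The member pair with the most similar pattern was that of the neighbours Il21r and Il4ra (Pearson r of log2 CPM 0.92 over the 8 libraries, a description without a test), whereas the neighbours Il2ra and Il15ra were unlike each other in PBS 1, where Il2ra was 0.11 below and Il15ra 0.90 above its own mean on the log2 scale. All 10 values of a library share its depth and its mix of cells.

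**Figure D4:**
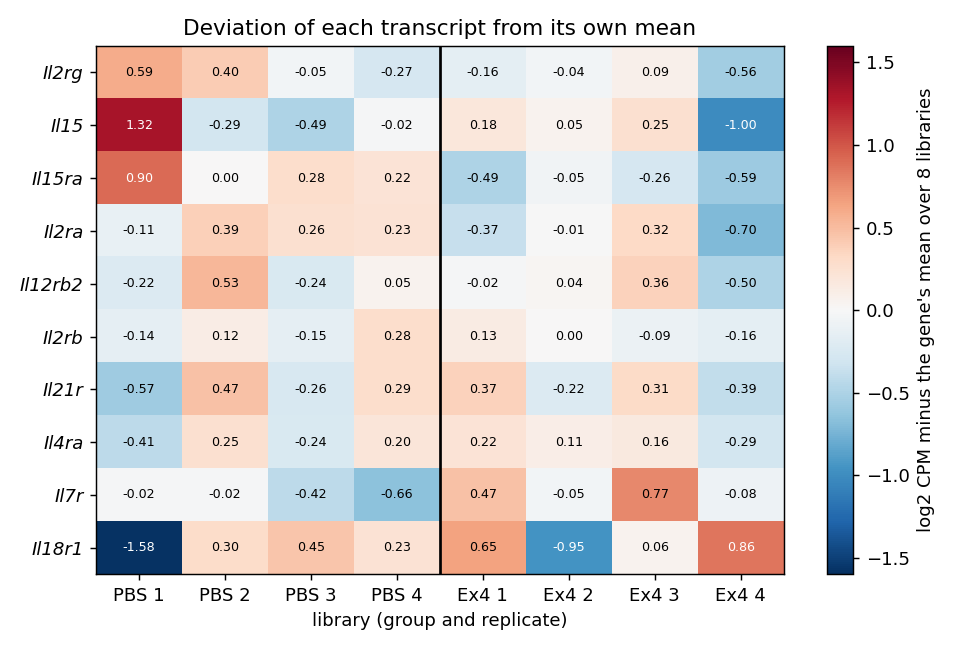
Deviation of each transcript's log2 CPM from its own mean over the 8 libraries (colour and printed value), libraries in columns with PBS left and Ex4 right of the line. PBS 1 is high for Il2rg, Il15 and Il15ra and low for Il18r1, Il21r and Il4ra, and Ex4 4 is below the mean for 9 of 10 transcripts.

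Outside these 10, the genes whose pattern over the 8 libraries was most like each member were listed by Pearson r among 8666 genes whose log2 CPM averaged 3 or more. With so many candidates and 8 libraries high values arise readily, and they are given as a description. Il2ra was followed most closely by Myc, the growth regulator that IL-2 signals also induce (r = 0.97), and by the chaperonin gene Cct4 (0.96). Il15ra was followed by Ssbp3 (0.97) and by the adhesion gene Cdh1 (0.97), 1 of the 13 epithelial markers above. Cdh1 was highest in PBS 1 (56.1 CPM), as were the markers Epcam and Lgals4, whereas the others of the list were highest in PBS 3. The sum of the list was 619 CPM in PBS 1. Il7r was followed by the mismatch repair gene Pms1 (0.99) and Ivd (0.97), Il2rg by Smyd3 and Nap1l4 (both 0.98), and Il12rb2 by Ctdp1 (0.98) and Rnf146 (0.97).

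Of 77 further genes of the pathway, in 6 lists, 70 were tested and 0 passed the edgeR test in either direction, nor did any in DESeq2 or limma-voom. At an unadjusted p under 0.05 there were 17 of the 70, where 7.61% of all genes were, and the groups did not overlap for 8 of the 70, against 4.95% of all genes. The lists were chosen with earlier results of these data known, so these shares support nothing by themselves. Of those 8, Socs4 and Il23r had the higher values with Ex4, and Il18bp, Jak1, Tyk2, Stat5a, Pim2 and Bcl2l1 the lower. Il23r, which encodes a chain of the IL-23 receptor and was singled out after its values were seen, was at 0.311 ± 0.406 CPM with PBS and 1.28 ± 0.301 with Ex4. List medians ran from -0.24 to 0.10 on the log2 scale, beside 0.02 over all genes.

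Apart from Il21, the ligand genes were scarce in these cells. Il2 was at 1.59 ± 0.727 CPM with PBS and 1.57 ± 0.930 with Ex4, and Il7 at 0.817 ± 0.784 and 0.445 ± 0.390 CPM. Il21, made by activated T cells, was at 0.818 CPM in PBS 1, against 16.9 to 24.0 CPM in the other PBS libraries and 10.2 to 42.3 CPM with Ex4. Its log2 fold change was 0.85 (SE 0.83, edgeR adjusted p = 0.877), 0.44 without PBS 1 and 0.53 without Ex4 1. Il18bp, a secreted decoy that binds IL-18, was at 7.25 ± 0.563 and 5.16 ± 0.731 CPM, with no overlap between groups (-0.49, edgeR adjusted p = 0.721). The list as a whole had 8 of 12 genes tested and a median of -0.12. In the list of other receptors 7 of 10 were tested, with a median of -0.24. Crlf2, a chain of the TSLP receptor, was at 26.2 ± 7.12 and 36.8 ± 8.14 CPM (0.49, edgeR adjusted p = 0.599), and 0.32 without Ex4 4. Sigirr, an inhibitory receptor of the IL-1 family, was at 33.3 ± 9.94 and 23.2 ± 4.61 CPM (-0.52, edgeR adjusted p = 0.566), and -0.30 without PBS 1.

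Of the 2 kinases that the common gamma chain receptors use, Jak1 was at 744 ± 65.0 CPM with PBS and 616 ± 61.1 with Ex4 (log2 fold change -0.27, edgeR adjusted p = 0.67). The Jak1 groups did not overlap, but only just, with 671.1 CPM in PBS 1 against 669.8 in Ex4 1 at the closest point. Jak3, which binds the gamma chain itself, was at 112 ± 30.1 and 149 ± 36.4 CPM (0.40, edgeR adjusted p = 0.686), 0.26 without PBS 1 and 0.23 without Ex4 1. Tyk2, a kinase of the IL-12 receptor, was at 131, 82.5, 69.7 and 83.0 CPM with PBS and at 68.8, 63.2, 48.9 and 62.6 CPM with Ex4. The groups did not overlap, with a log2 fold change of -0.59 (SE 0.18, edgeR adjusted p = 0.432), and -0.37 without PBS 1. Stat5a was at 127 ± 14.8 and 100.5 ± 4.45 CPM, also without overlap (-0.33, edgeR adjusted p = 0.538), whereas its close relative Stat5b was at 160 ± 9.85 and 169 ± 15.8 CPM (0.08, edgeR adjusted p = 0.931). The kinases, STATs and adaptors had a median of 0.03 over 15 genes.

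The feedback inhibitors and targets gave no call either. Cish, a direct STAT5 target that restrains cytokine signals, was at 218 ± 26.7 and 213 ± 18.1 CPM (log2 fold change -0.03, edgeR adjusted p = 0.977). Socs3 was at 42.5, 145, 117 and 164 CPM with PBS and at 241, 153, 240.5 and 223 CPM with Ex4 (0.88, SE 0.36, edgeR adjusted p = 0.614), and 0.59 without PBS 1. Ptpn6, which encodes the phosphatase SHP-1, had a log2 fold change of -0.81 (SE 0.31, edgeR adjusted p = 0.571), and -0.36 without PBS 1. Socs4 had a log2 fold change of 0.66 (SE 0.24, edgeR adjusted p = 0.528), and 0.40 without Ex4 3. The inhibitors had a median of 0.10 over 11 genes. Among the 18 targets (median -0.10), the survival gene Bcl2l1 was at 538, 229.6, 224 and 280.3 CPM with PBS and at 106, 215, 181 and 133 CPM with Ex4, without overlap (-1.0, SE 0.31, edgeR adjusted p = 0.466), and -0.63 without PBS 1. Bcl2 was at 1306 CPM in PBS 1 and at 645 to 702 CPM in the other PBS libraries, against 480.3 to 757 CPM with Ex4 (-0.54, edgeR adjusted p = 0.595), and -0.25 without PBS 1. Pim2, a growth kinase induced by STAT5, was at 353 ± 80.2 and 253 ± 22.9 CPM, without overlap (-0.48, edgeR adjusted p = 0.454), and -0.32 without PBS 1. Xcl1, which encodes a chemokine of CD8 T cells, averaged 224 ± 62.8 and 136.8 ± 46.0 CPM (-0.71, edgeR adjusted p = 0.543). Ifng, the output of IL-12 and IL-18 signals, was at 145 ± 46.4 and 90.2 ± 28.9 CPM (-0.69, edgeR adjusted p = 0.554), and its log2 fold change was -0.21 with the epithelial score as a term. Among 11 regulators of the receptor genes (median -0.02), Gfi1, a repressor of Il7r, was at 48.4 ± 8.05 and 34.7 ± 6.66 CPM (-0.48, edgeR adjusted p = 0.523), and Runx3, a factor of CD8 lineage cells, at 192 ± 42.2 and 140.3 ± 26.3 CPM (-0.45, edgeR adjusted p = 0.556).

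Several pathway values were smaller, and some larger, with the conventional T cell score as a term in the edgeR fit. The log2 fold change was then -0.45 for Bcl2l1, -0.24 for Pim2, -0.09 for Bcl2, -0.19 for Ptpn6 and -0.25 for Tyk2. It was 0.31 for Socs3, 0.23 for Socs4, 0.20 for Jak3, 0.37 for Il18rap, -0.07 for Il12rb1, -0.17 for Sigirr and 0.27 for Crlf2. Among the larger ones were Jak1 at -0.36 and Stat5a at -0.41. Of the markers in that score 7 of 10 had log2 fold changes above 0. Their sum was 192 to 297 CPM with PBS and 273 to 402 CPM with Ex4. The score can thus overlap with the treatment, and the fit cannot tell the 2 apart. Jak3 was at 0.22 with the epithelial score.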

How the data were processed

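The deposited table gives unnormalised counts for each gene symbol as whole numbers, with a column for each mouse. Descriptions in the labels tied all 8 columns to mice, so that 0 were unused. The submitters' processing notes name STAR 2.7.9a, DESeq2 and mm10, and the read counter is not given in the sources used here. Per the labels' protocols the libraries were strand-specific TruSeq mRNA.

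Counts were filtered with filterByExpr, TMM-scaled and tested with edgeR 4.0.16 in R 4.3.3 (quasi-likelihood, Benjamini-Hochberg adjustment over 14691 genes, threshold 0.05). SEs were derived from the F statistic, and 95% intervals from its degrees of freedom. Log2 CPM used a prior count of 2. Exon lengths came from GENCODE M21, and promoters and coordinates from RefSeq. Alternatives (19) included DESeq2 1.42.0, limma-voom (limma 3.58.1), other scaling and filters, libraries left out and added terms. The test was checked on simulated counts. Members, lists and tests were chosen with earlier results of these data known. Besides the members, the genes named were fixed ones, the smallest p of each pathway list (up to 3 per list) and the 2 genes most like a member. Il21r and Il4ra, and Il2ra and Il15ra, were singled out as neighbours after their values were seen. The labels describe separate mice but no litter, cage or day. Protein sequences were not used here.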

Additional observations from a re-analysis of the deposited data

Results flagged for a closer look

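Libraries far from the rest of their group were sought with Dixon's ratio, the distance of the extreme library from the next one as a share of the range of the 4 libraries. It was applied to the 10 members, the 7 marker sums and the total counts. Of 36 sets of 4 values 3 exceeded the 95% limit, and chance passes about 1 in 20. Il18r1 was low in PBS 1, with a log2 CPM of -0.30 against 1.51 for the nearest PBS library (ratio 0.892, 15 counts). Il15 was low in Ex4 4, the shallowest library, with a log2 CPM of -0.77 against 0.29 (ratio 0.84, 7 counts). B and plasma cell markers were high in PBS 1, with a summed level of 1461 CPM against 906 in the nearest PBS library (ratio 0.90).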

How the results depend on the processing

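No member and no pathway gene was called under any of the 19 alternatives. Of 189 member values, 172 kept their direction and 17 changed sign. Il15ra, Il2rg, Il2ra and Il7r kept theirs in every alternative, with ranges of -0.87 to -0.40, -0.51 to -0.17, -0.55 to -0.20 and 0.37 to 0.68 in log2 fold change. With 1 library left out, log2 fold changes ran from -0.16 (without PBS 3) to 0.0034 (without PBS 4) for Il2rb and from -0.65 (without PBS 3) to 0.22 (without PBS 1) for Il15. They ran from -0.15 (without PBS 1) to 0.18 (without PBS 2) for Il21r, from -0.035 to 0.18 without the same libraries for Il4ra, and from -0.042 (without PBS 1) to 0.52 (without Ex4 2) for Il18r1. The range was -0.23 (without Ex4 3) to 0.12 (without PBS 2) for Il12rb2, -0.14 (without PBS 3) to 0.030 (without PBS 2) for Cish, and -0.51 (without Ex4 3) to 0.29 (without PBS 3) for Il2. With no count filter Il21r was at -0.0048. With the conventional T cell score as a term Il15 was at 0.39, Il21r at -0.32, Il4ra at -0.080, Il18r1 at -0.46, Il21 at -0.35 and Stat5b at -0.0018, and with the epithelial score Il21r was at -0.19 and Il2 at 0.36. Without both PBS 2 and Ex4 3, Il7 was at 0.34. The stricter filter of 10 counts in every library gave no value for Il15. The cause was not tested.

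Over all genes edgeR called 2, both higher with Ex4. The count was 1 with limma-voom, the run of label numbers, either marker score or the replicate block as a term. DESeq2 called 70 (40 higher, 30 lower), and edgeR with no count filter 8 (5 higher, 3 lower). With 1 library left out it ran from 1 to 14 (1 to 10 higher and 0 to 4 lower), the 14 being without PBS 2. The median fold change of all genes stayed within 0.04 of 0 in every setting. Same-numbered mice did not vary together (correlations of deviations 0.09, -0.03, -0.24 and 0.14), so the numbers were not taken as pairs; of the PBS mice only PBS 4 correlated best with its own number. With the replicate block Il15ra was at -0.70 and Il7r at 0.56. Per kb of the longest transcript, in place of merged exons, Il2rg was at 1086, Il21r at 258, Il2ra at 42.0, Il15ra at 14.2 and Il7r at 3.35 CPM per kb with PBS. Il15 and Il18r1 had the fewest counts of the members, from 7 to 84, and their spread between mice was larger than counting error.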
